A study of Mus musculus with 9 samples.

Results

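The 41 genes described here encode transcription factors of limb, trunk and skeletal mesenchyme that lie outside the *Hox* clusters, namely homeobox, T-box, forkhead, basic helix-loop-helix, zinc-finger, Sox and Runt factors. They were chosen by name, and all 41 were found among the 22068 rows of the gene count table. Primary mouse embryonic fibroblasts (MEFs, connective-tissue cells grown from embryos) of the C57Bl/6 strain at passage 2 had been electroporated with a plasmid carrying V5-tagged human *CRX* (eutherian CRX), V5-tagged opossum *CRX* (metatherian CRX) or no homeobox gene (control). All 3 plasmids carried a puromycin resistance gene, all cells were selected in puromycin for 5 days, and each condition gave 3 poly-A RNA-seq libraries numbered 1 to 3. A recovery of 48 h is listed for all 9 libraries, and the study places it before selection. The sources used here name neither the promoter that drove *CRX* nor separate cultures behind the triplicates, so p-values measure the spread between these libraries, which may be technical.

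Transcription factors of this kind give mesenchymal cells their position and fate. In the limb bud, *Meis* genes mark the proximal part, *Tbx5* marks the forelimb, *Tbx4* and *Pitx1* mark the hindlimb, and *Gli* zinc-finger proteins carry the Hedgehog signal, while *Sox9* and *Runx2* direct cartilage and bone formation. Many of these genes stay on in cultured embryonic fibroblasts. CRX is a paired-type homeodomain protein of photoreceptors that binds DNA at a TAATCC core, whereas the PRRX, SHOX and ALX proteins are paired-type homeodomain proteins that favour TAATTA.

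RefSeq (GRCm38.p6) gave start-site windows for 26 of the 41 genes. Stretches upstream of 4 of them are shown because these genes carry the results that follow. *Shox2* was the only gene of the group called against control in the main edgeR fit of all 9 libraries, *En1* and *Gli2* had the smallest p-values of the group under metatherian CRX, and *Prrx1* had the highest normalized counts. Each is written 5′ to 3′ on the strand of the gene, with TAATCC and TAATTA in capitals on either strand. *Shox2* is shown from chr3:66981772-66982021 (minus strand), *En1* from chr1:120602237-120602390 (plus strand), *Gli2* from chr1:119053620-119053869 (minus strand) and *Prrx1* from chr1:163313706-163313900 (minus strand).
Shox2: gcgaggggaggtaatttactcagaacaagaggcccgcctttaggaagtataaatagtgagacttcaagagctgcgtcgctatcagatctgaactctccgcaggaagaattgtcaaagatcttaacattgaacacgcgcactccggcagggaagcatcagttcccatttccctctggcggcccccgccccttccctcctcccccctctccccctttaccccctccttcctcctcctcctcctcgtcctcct
En1: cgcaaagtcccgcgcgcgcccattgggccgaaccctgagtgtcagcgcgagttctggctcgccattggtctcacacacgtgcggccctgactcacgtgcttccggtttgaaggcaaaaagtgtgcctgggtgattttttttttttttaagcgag
Gli2: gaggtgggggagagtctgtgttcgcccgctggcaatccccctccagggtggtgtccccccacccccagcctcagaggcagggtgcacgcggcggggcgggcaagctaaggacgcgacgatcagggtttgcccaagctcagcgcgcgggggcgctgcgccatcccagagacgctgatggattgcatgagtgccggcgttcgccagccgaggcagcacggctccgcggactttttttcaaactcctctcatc
Prrx1: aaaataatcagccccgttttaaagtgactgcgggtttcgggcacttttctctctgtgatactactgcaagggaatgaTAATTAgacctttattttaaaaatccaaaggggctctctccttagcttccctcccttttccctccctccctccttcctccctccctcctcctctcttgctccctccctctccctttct

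Of these 4 stretches, the one before *Prrx1* alone held either motif, a TAATTA. In the 250 bases before the start, TAATCC was found on either strand in 0 of the 31 windows of these genes and in 6.25% of all 32851 windows. TAATTA, which reads the same on both strands, was found in 2 of the 31 windows, those of *Prrx1* and *Foxp1*, and in 4.84% of all windows. These matches describe letters in a short window and say nothing about binding.

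Library depth ranged from 54145701 to 94699657 assigned counts, and TMM scaling factors ranged from 0.960 to 1.11. Mouse *Crx* had 627, 995 and 313 counts in the eutherian CRX libraries, 0 in each control library, and 4, 0 and 0 in the metatherian CRX libraries. Neither transgene has a row of its own in the table. In the *Crx* row, reads of the human transgene and of mouse *Crx* could not be told apart. The opossum transgene could not be checked in this way. All 12 fibroblast markers exceeded a mean of 2 FPKM (counts scaled by exon length and library total), and their summed level was 44947 to 53731 CPM (counts scaled by library total and TMM factor) in control, 19235 to 42408 CPM under eutherian CRX and 24252 to 45513 CPM under metatherian CRX. In each condition the library numbered 3 stood apart from libraries 1 and 2, as the values of single genes show.

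The 41 genes spanned a wide range of levels, and a few homeobox, T-box and Twist factors held most of it. The mean over 9 libraries was at least 50 FPKM for 3 genes, at least 10 FPKM for 10, at least 2 FPKM for 29 and under 1 FPKM for 7. The highest were *Prrx2* (mean 110 FPKM) and *Prrx1* (67.0 FPKM), related paired-type factors of limb bud mesenchyme. They were followed by *Tbx15* (54.9 FPKM), a T-box factor of dermis and limb skeleton, *Twist1* (41.9 FPKM), a basic helix-loop-helix factor of mesoderm and cranial sutures, and *Osr1* (26.5 FPKM), an odd-skipped zinc-finger factor of connective-tissue progenitors. *Twist2*, the dermal relative of *Twist1*, followed at 21.3 FPKM, and the cartilage factor *Sox9*, the Hedgehog repressor *Gli3*, the forkhead factor *Foxc1* and the hindlimb factor *Tbx4* lay between 10.5 and 12.0 FPKM. The lowest were *Gli1*, a direct target of Hedgehog signalling, at 0.0943 FPKM, and *Tcf21*, a factor of epicardial and visceral mesenchyme, at 0.175 FPKM.

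**Figure D1:**
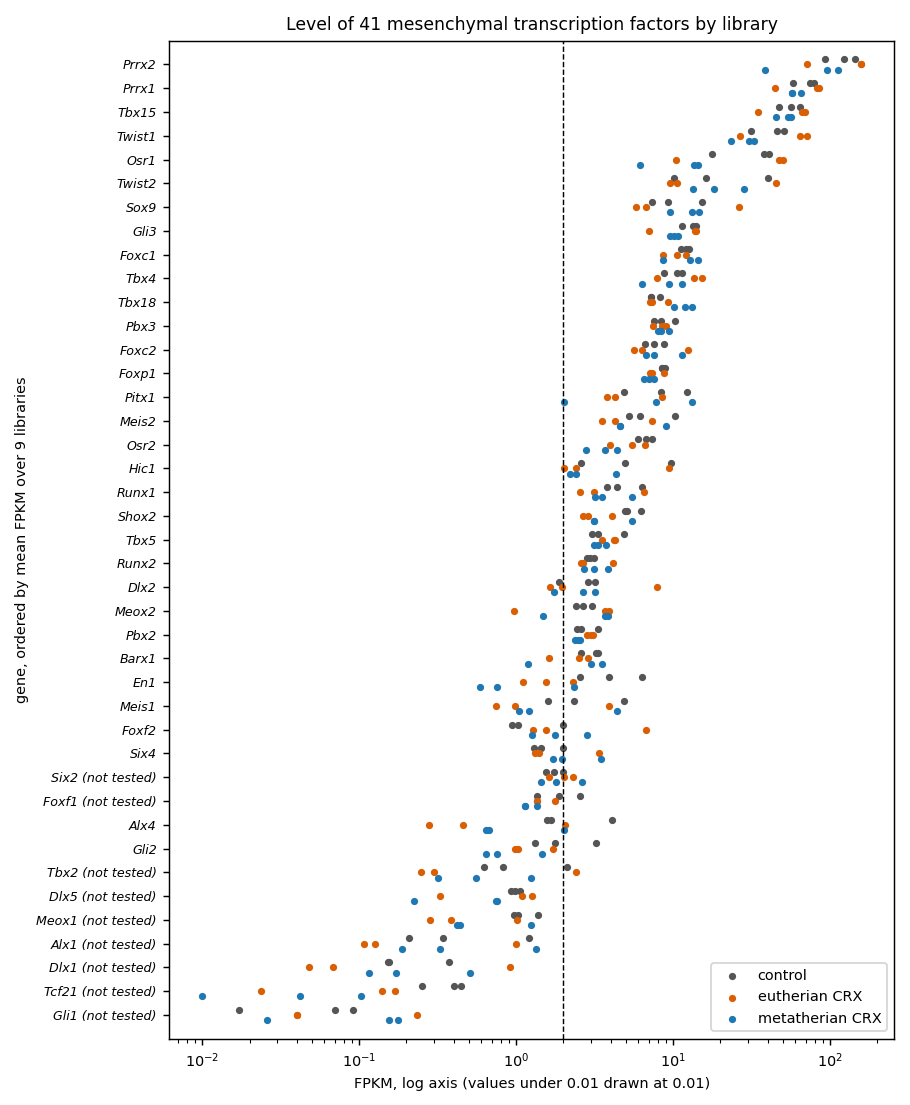
Level of each of the 41 genes in FPKM (log axis) in each of the 9 libraries, coloured by condition and ordered by mean, with a dashed line at the 2 FPKM limit for testing. *Prrx2*, *Prrx1* and *Tbx15* have means of at least 50 FPKM, and 9 genes have no condition mean above the dashed line.

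*Prrx1* and *Tbx15* show how levels of abundant members of the group lay across the libraries. *Prrx1* had 977, 918 and 704 CPM in control libraries 1 to 3, 992, 1002 and 484 CPM under eutherian CRX, and 809, 704 and 653 CPM under metatherian CRX. *Tbx15* had 254, 221 and 182 CPM in control, 250, 259 and 119 CPM under eutherian CRX, and 221, 208 and 163 CPM under metatherian CRX. In both genes the conditions overlapped, and library 3 was the lowest of each condition.

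All 41 genes had enough counts to be fitted, and 32 of them also had a mean above 2 FPKM in at least 1 condition and entered the main test over 10100 genes. Outside the main test were *Six2*, *Foxf1*, *Tbx2*, *Dlx5*, *Meox1*, *Alx1*, *Dlx1*, *Tcf21* and *Gli1*. Just outside the limit were *Six2*, a factor of nephron progenitors, with its highest condition mean of 1.98 FPKM under eutherian CRX, and *Foxf1*, a forkhead factor of visceral mesenchyme, with 1.93 FPKM in control. *Six2* had 4.21, 4.78 and 3.67 CPM in control, 4.71, 3.75 and 4.87 CPM under eutherian CRX, and 4.39, 6.28 and 3.21 CPM under metatherian CRX. *Foxf1* had 4.77, 6.52 and 3.36 CPM in control, 3.34, 3.33 and 3.92 CPM under eutherian CRX, and 2.91, 3.43 and 2.68 CPM under metatherian CRX. Just inside were *Gli2* (control mean 2.10 FPKM), *Six4* (2.39 FPKM under metatherian CRX) and *Alx4* (control mean 2.43 FPKM). *Alx4*, *En1* and *Gli2* passed through the control mean alone and *Foxf2* through the eutherian CRX mean alone, so for them the limit itself favours a difference.

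The comparison of each *CRX* plasmid with control asked which of these genes responded to an ectopic homeodomain protein. Under eutherian CRX, 1 of the 32 tested genes was called by edgeR's quasi-likelihood test at an adjusted p under 0.05, against 0.604% of all genes tested, and this was *Shox2*, which fell. By direction this was 1 lower and 0 higher, against 0.584% and 0.0198% of all genes. At an unadjusted p under 0.05 the count was 9, with 8 lower and 1 higher, against 8.56% of all genes (6.34% lower and 2.23% higher). Under metatherian CRX, 0 of the 32 genes were called by edgeR, against 0.0297% of all genes, whereas 13 had an unadjusted p under 0.05 (11 lower and 2 higher), against 19.5% of all genes (10.5% lower and 9.04% higher). DESeq2 called 9 of the group in that comparison and limma voom called 19, against 9.94% and 46.2% of all genes, and under eutherian CRX they called 6 and 11, against 3.3% and 16.8%. The genes DESeq2 called under metatherian CRX were *Alx4*, *En1*, *Foxp1*, *Gli2*, *Osr1*, *Osr2*, *Prrx2*, *Shox2* and *Tbx18*, and those under eutherian CRX were *Alx4*, *En1*, *Gli2*, *Meis1*, *Meis2* and *Shox2*. The median log2 fold change of the 32 genes was -0.19 under eutherian CRX and -0.25 under metatherian CRX, beside 0.001 and -0.008 for all genes tested.

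When all 41 genes were fitted without the FPKM limit, 0 were called under metatherian CRX (0.0137% of 14599 genes), while 17 reached an unadjusted p under 0.05 (15 lower and 2 higher), against 20.4% of all genes (10.8% lower and 9.61% higher). Under eutherian CRX 2 were called, *Alx4* and *Shox2*, both lower, against 0.623% of all genes (0.603% lower and 0.0205% higher), and 11 reached an unadjusted p under 0.05 (10 lower and 1 higher), against 9.65% of all genes (7.16% lower and 2.49% higher). The libraries of metatherian CRX and control did not overlap for 6 of the 32 genes (*Osr1*, *Osr2*, *En1*, *Foxp1* and *Gli3* lower, *Tbx18* higher), against 23.3% of all genes (12.3% lower and 11% higher). For eutherian CRX and control they did not overlap for 3 (*Shox2*, *En1* and *Foxp1*, all lower), against 14% of all genes (7.8% lower and 6.21% higher). Taken over both directions these counts are below the share of all genes, and for lower genes alone, 5 and 3 of 32, they are slightly above it. Both comparisons share the 3 control libraries.

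Single libraries decided several of these counts. Without eutherian CRX library 3, 8 genes were called under metatherian CRX (*Alx4*, *En1*, *Gli2*, *Gli3*, *Osr1*, *Osr2* and *Twist1* lower, *Tbx18* higher), against 8.79% of all genes. Without metatherian CRX library 3, 5 were called in that comparison (*En1*, *Gli2*, *Osr1* and *Shox2* lower, *Tbx18* higher), against 4.79% of all genes, and 3 under eutherian CRX (*En1*, *Meis2* and *Shox2*, all lower), against 1.13%. Each other omission of a single library left 0 called in the comparison of metatherian CRX with control and, counting eutherian CRX library 3 among them, 0 in that of eutherian CRX with control.

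**Figure D2:**
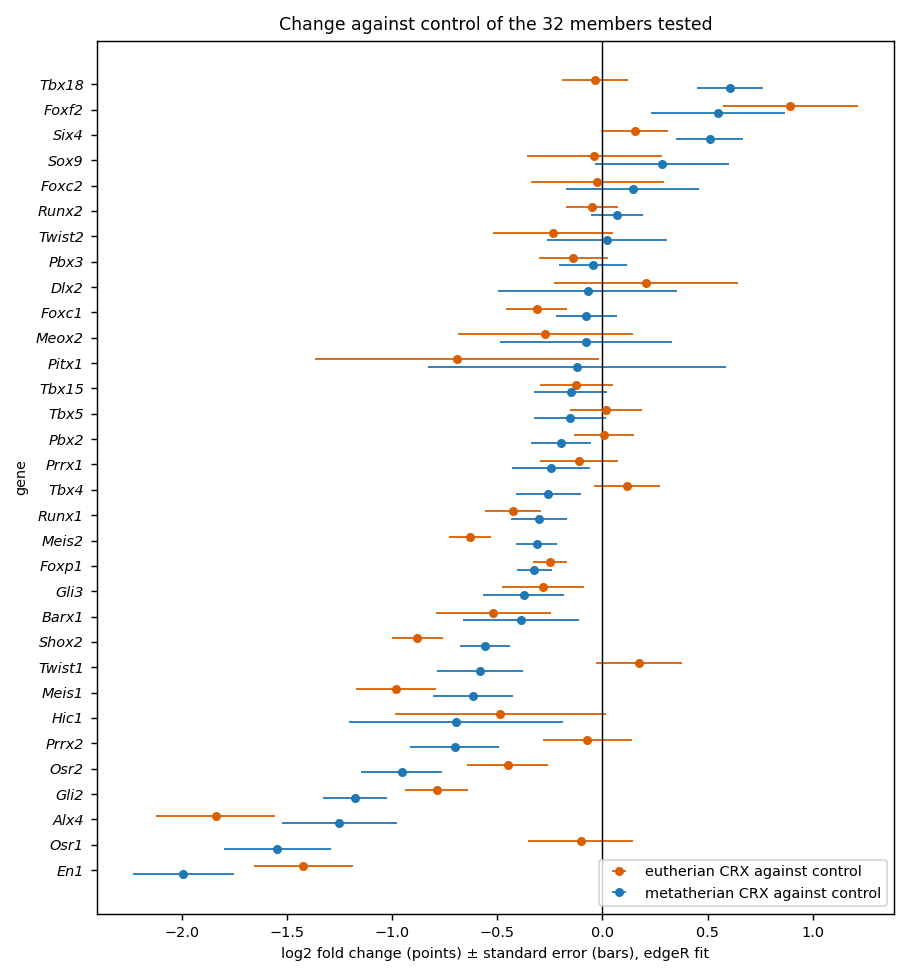
Log2 fold change against control (points) with its standard error (bars) for the 32 tested genes under eutherian CRX and metatherian CRX, from the edgeR fit over 9 libraries. Most points lie left of 0, *En1* (-1.99 under metatherian CRX) and *Alx4* (-1.84 under eutherian CRX) lie farthest left, and *Osr1* is at -1.55 under metatherian CRX and -0.10 under eutherian CRX.

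Among the paired-type homeobox genes, all 5 tested had negative fitted fold changes against control with both plasmids. Of the 10100 genes tested, 5176 had negative fold changes under metatherian CRX and 5015 under eutherian CRX. In *Pitx1* under metatherian CRX and in *Prrx1* and *Prrx2* under eutherian CRX, library 3 alone lay below the control library of its number. *Shox2* was called under eutherian CRX. *Shox2*, which controls growth of the proximal limb bones and the cardiac pacemaker, lies on the minus strand at chr3:66971723-66981771. It had 30.0, 29.0 and 36.1 CPM in control, 15.1, 16.2 and 20.8 CPM under eutherian CRX, and 18.4, 18.1 and 29.3 CPM under metatherian CRX. All 3 eutherian CRX libraries lay below all 3 control libraries, while metatherian CRX library 3 reached the control range. *Shox2* fell to 54.3% of control under eutherian CRX (log2 fold change -0.88, SE 0.12, adjusted p = 0.039, edgeR). In bulk RNA, fewer cells that express a gene and less of its RNA per cell cannot be told apart. Under metatherian CRX the log2 fold change was -0.56 (SE 0.12, adjusted p = 0.098).

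The call of *Shox2* under eutherian CRX held with DESeq2 (adjusted p = 5.0e-07), with limma voom (adjusted p = 7.6e-05) and in edgeR with both other scalings and both other filters, but not in every fit, while its log2 fold change stayed between -0.96 and -0.81. Without the library number as a block the adjusted p was 0.30, and with only the 6 libraries compared it was 0.076. Without control library 1, 2 or 3 the adjusted p was 0.21, 0.31 or 0.13, without eutherian CRX library 1, 2 or 3 it was 0.34, 0.15 or 0.13, and without metatherian CRX library 1 or 2 it was 0.12 or 0.075. Without metatherian CRX library 3 it was 0.025, and without all libraries numbered 3 it was 0.0085.

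*Alx4*, an aristaless-like factor of the craniofacial mesenchyme and anterior limb bud (chr2:93642434-93681341, plus strand), had the most negative fold change of the group under eutherian CRX. It had 8.65, 9.07 and 21.7 CPM in control, 1.46, 2.39 and 9.69 CPM under eutherian CRX, and 3.66, 3.44 and 10.1 CPM under metatherian CRX. Library 3 was well above the other two in each condition, so the conditions overlapped although each *CRX* library lay below the control library of its number. The log2 fold change was -1.84 under eutherian CRX (SE 0.28, adjusted p = 0.053, edgeR) and -1.25 under metatherian CRX (SE 0.28, adjusted p = 0.10). Its relative *Alx1* had 0.601, 0.995 and 3.42 CPM in control, 0.353, 0.298 and 2.52 CPM under eutherian CRX, and 0.960, 0.536 and 3.57 CPM under metatherian CRX. In the edgeR fit of all 41 genes without the FPKM limit, the log2 fold change of *Alx1* was -0.95 under eutherian CRX (SE 0.37, unadjusted p = 0.033, adjusted p = 0.46) and -0.04 under metatherian CRX, and its log2 difference between metatherian and eutherian CRX was 0.91 (SE 0.36, unadjusted p = 0.039, adjusted p = 0.40). For *Alx1*, 69 exonic bases overlap *Gm34298* on the other strand.

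*Prrx2* (chr2:30845064-30881251, plus strand) had 189, 222 and 140 CPM in control, 234, 235 and 96.4 CPM under eutherian CRX, and 148, 173 and 54.2 CPM under metatherian CRX. The 3 conditions overlapped, with library 3 lowest in each. Its log2 fold change under metatherian CRX was -0.70 (SE 0.21, unadjusted p = 0.014, adjusted p = 0.16, edgeR), or -0.40 without control library 3, and under eutherian CRX it was -0.07 (adjusted p = 0.97). The log2 fold changes of *Prrx1* were -0.25 under metatherian CRX and -0.11 under eutherian CRX, each with an SE of 0.19. Each metatherian CRX library lay below the control library of its number. There *Prrx1* was called by limma voom and by edgeR without the libraries numbered 3, against 46.2% and 22.3% of all genes. *Pitx1*, a hindlimb factor, was erratic under metatherian CRX, with 21.8, 36.3 and 5.17 CPM beside 13.6, 23.3 and 33.7 CPM in control. Its log2 fold change there was -0.12 (SE 0.71). Under eutherian CRX *Pitx1* had 11.5, 10.1 and 20.8 CPM, each below the control library of its number, and a log2 fold change of -0.69 (SE 0.67).

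*En1*, a homeobox gene outside the paired-type and TALE families, had the most negative fold change of the tested genes under metatherian CRX. It encodes an engrailed homeodomain protein of limb ectoderm that also marks a lineage of dermal fibroblasts, and lies at chr1:120602391-120607991 (plus strand). It had 7.20, 11.1 and 17.6 CPM in control, 3.01, 4.16 and 5.72 CPM under eutherian CRX, and 1.67, 2.09 and 6.01 CPM under metatherian CRX. All 6 *CRX* libraries lay below the lowest control library. The fitted level was 25.1% of control under metatherian CRX (log2 fold change -1.99, SE 0.24, unadjusted p = 8.2e-05, adjusted p = 0.069, edgeR) and 37.3% under eutherian CRX (log2 fold change -1.42, SE 0.24, adjusted p = 0.068), so neither passed the threshold in the main edgeR fit. DESeq2 and limma voom called *En1* under metatherian CRX (adjusted p = 2.1e-10 and 1.8e-05) and under eutherian CRX (adjusted p = 1.3e-05 and 0.00019). Without metatherian CRX library 3, edgeR called it in both comparisons (adjusted p = 0.011 and 0.025), and over all fits its adjusted p reached 0.39 and 0.68. Other homeobox genes in the main test were *Meox2* of somites and limb muscle, *Dlx2* of the branchial arches and *Barx1* of jaw and stomach mesenchyme, whose log2 fold changes against control lay between -0.52 and 0.21 with adjusted p of at least 0.48. *Meox1*, a somite gene below the FPKM limit (chr11:101877510-101894354, minus strand), had 2.23, 2.38 and 3.12 CPM in control, 0.857, 0.627 and 2.05 CPM under eutherian CRX, and 0.973, 1.00 and 2.63 CPM under metatherian CRX. Each *CRX* library lay below the control library of its number. In the edgeR fit of all 41 genes its log2 fold change was -1.29 under eutherian CRX (SE 0.31, unadjusted p = 0.0036, adjusted p = 0.17) and -0.89 under metatherian CRX (SE 0.30, adjusted p = 0.17). *Dlx5*, which acts in bone and branchial arch development, had 2.37, 2.20 and 2.03 CPM in control, 2.37, 2.73 and 0.643 CPM under eutherian CRX, and 1.69, 1.65 and 0.461 CPM under metatherian CRX, and its log2 fold change under metatherian CRX in that fit was -1.02 (SE 0.42, unadjusted p = 0.043, adjusted p = 0.23, edgeR). *Dlx1* lay at 0.202 to 3.49 CPM, with log2 fold changes of 0.02 and -0.37 (SE 0.56 and 0.58) under metatherian and eutherian CRX.

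The TALE homeobox genes *Meis1* and *Meis2*, whose products are cofactors of Hox and Pbx proteins and mark the proximal limb, had lower levels in every *CRX* library than in the control library of the same number. *Meis2* (chr2:115861264-116067555, minus strand) had 38.6, 44.8 and 74.2 CPM in control, 24.9, 29.8 and 46.8 CPM under eutherian CRX, and 33.6, 33.1 and 60.3 CPM under metatherian CRX. *Meis1* (chr11:18880428-19020482, minus strand) had 8.32, 12.0 and 24.7 CPM in control, 3.73, 4.87 and 17.7 CPM under eutherian CRX, and 5.41, 6.22 and 20.9 CPM under metatherian CRX. In both genes library 3 was the highest of each condition and the conditions overlapped. Under eutherian CRX the log2 fold change of *Meis2* was -0.63 (SE 0.10, adjusted p = 0.058, edgeR) and that of *Meis1* was -0.98 (SE 0.19, adjusted p = 0.11). Under metatherian CRX they were -0.31 (SE 0.10, adjusted p = 0.17) and -0.62 (SE 0.19, adjusted p = 0.16).

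Their partners *Pbx2* and *Pbx3* were among the steadier genes, with log2 fold changes between -0.20 and 0.01 against control and adjusted p of at least 0.48. *Pbx2* lay between 25.7 and 38.0 CPM in the 9 libraries and *Pbx3* between 23.9 and 36.7 CPM. Of the 36 exon intervals listed for *Pbx2*, 27 were on alternate scaffolds, so its FPKM is understated.

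**Figure D3:**
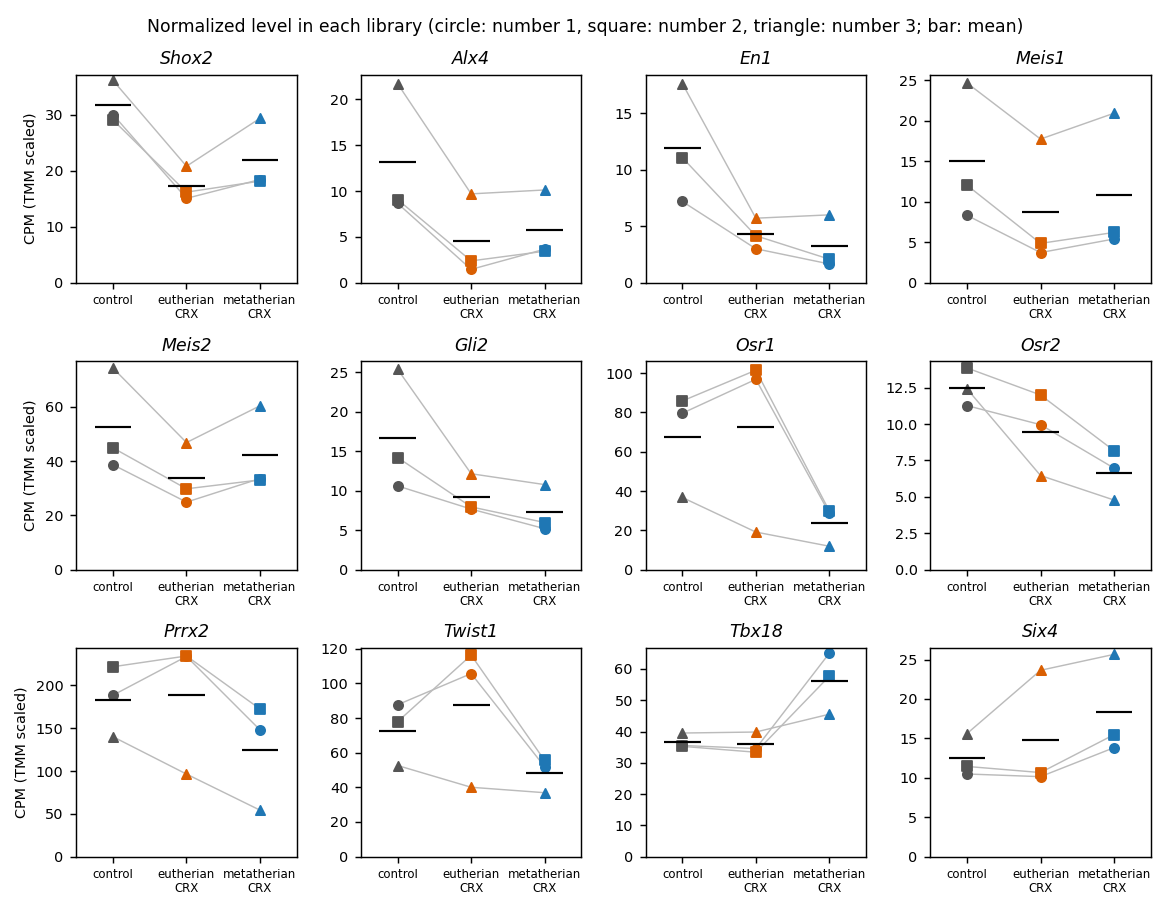
TMM-scaled CPM of 12 genes in each library (circle, library 1; square, library 2; triangle, library 3; bar, mean of the condition; grey lines join libraries of the same number), each panel with its own axis from 0; the 12 genes were chosen after their values were seen. The *Shox2* and *En1* points of eutherian CRX lie below all control points, the *Osr1* points of metatherian CRX lie below all control points, and *Tbx18* is above control in all 3 metatherian CRX libraries.

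The odd-skipped genes lay below control in every metatherian CRX library. In the direct comparison of the plasmids edgeR called neither in the main fit, against 0% of all genes. There DESeq2 called *Osr1* and limma voom called both, against 3.14% and 48.3% of all genes. *Osr1* (chr12:9574442-9581500, plus strand) had 79.6, 85.9 and 36.7 CPM in control, 96.9, 102 and 19.1 CPM under eutherian CRX, and 28.7, 29.9 and 11.9 CPM under metatherian CRX. All metatherian CRX libraries lay below all control libraries, whereas eutherian CRX libraries 1 and 2 lay above them and library 3 lay below. The log2 fold change was -1.55 under metatherian CRX (SE 0.25, unadjusted p = 0.00053, adjusted p = 0.072, edgeR), which is 34.2% of control, and -0.10 under eutherian CRX (SE 0.25, adjusted p = 0.96). *Osr2*, its paralogue in palate and joint development (chr15:35296112-35303308, plus strand), had 11.3, 13.9 and 12.4 CPM in control, 9.96, 12.0 and 6.47 CPM under eutherian CRX, and 6.98, 8.17 and 4.78 CPM under metatherian CRX. Here too the metatherian CRX libraries lay below every control library. The log2 fold change of *Osr2* was -0.95 under metatherian CRX (SE 0.19, adjusted p = 0.088, edgeR) and -0.45 under eutherian CRX (adjusted p = 0.59).

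*Twist1* (chr12:33957671-33959831, plus strand) had 87.7, 78.0 and 52.6 CPM in control, 106, 116 and 40.0 CPM under eutherian CRX, and 51.9, 55.5 and 36.9 CPM under metatherian CRX. Metatherian CRX libraries 1 and 3 lay below the lowest control library and library 2 lay just above it. Its log2 fold change was -0.58 under metatherian CRX (SE 0.20, unadjusted p = 0.025, adjusted p = 0.20, edgeR) and 0.17 under eutherian CRX (adjusted p = 0.89). *Twist2* ranged from 12.6 to 54.5 CPM, mostly between library numbers, and its log2 fold changes were 0.02 under metatherian CRX, which was -0.004 with upper-quartile scaling, and -0.24 under eutherian CRX, with an SE of 0.28. *Tcf21* had 30, 47 and 22 counts in control, 14, 14 and 2 under eutherian CRX, and 0, 4 and 8 under metatherian CRX. The 0 of metatherian CRX library 1 allows up to 3 counts, and the gene was too low for the main test. In the edgeR fit of all 41 genes its log2 fold change was -2.95 under metatherian CRX (SE 0.99, unadjusted p = 0.020, adjusted p = 0.17) and -1.80 under eutherian CRX (SE 0.88, adjusted p = 0.59), values that depend on the few counts behind them.

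*Tbx18*, a T-box factor of the epicardium and somites (chr9:87702800-87731260, minus strand), was the gene of the group with the clearest positive difference. It had 35.5, 35.2 and 39.5 CPM in control, 34.5, 33.4 and 39.8 CPM under eutherian CRX, and 65.0, 57.7 and 45.5 CPM under metatherian CRX. Each metatherian CRX library lay above every control and eutherian CRX library, and its library 3 lay closest to them. The log2 fold change against control was 0.61 under metatherian CRX (SE 0.16, unadjusted p = 0.0066, adjusted p = 0.12, edgeR) and -0.03 under eutherian CRX. *Tbx4* (chr11:85886343-85916099, plus strand) had 54.1, 50.4 and 40.5 CPM in control, 62.7, 69.1 and 32.7 CPM under eutherian CRX, and 44.6, 53.2 and 27.8 CPM under metatherian CRX. Its conditions overlapped, with log2 fold changes against control of -0.26 and 0.12 (SE 0.16) under metatherian and eutherian CRX. Those of *Tbx5* were -0.15 and 0.02 (SE 0.17). *Tbx15* had -0.15 and -0.12 with an SE of 0.17, and *Tbx2*, at 0.881 to 7.82 CPM and below the FPKM limit, had -0.78 (SE 0.38, unadjusted p = 0.080) and -0.84 (SE 0.39, unadjusted p = 0.065) in the edgeR fit of all 41 genes.

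*Six4*, a sine oculis homeobox gene with a role in muscle development (chr12:73099609-73114774, minus strand), had 10.5, 11.4 and 15.6 CPM in control, 10.1, 10.7 and 23.6 CPM under eutherian CRX, and 13.8, 15.5 and 25.7 CPM under metatherian CRX. Each metatherian CRX library lay above the control library of its number, but the conditions overlapped. Its log2 fold change was 0.51 under metatherian CRX (SE 0.16, unadjusted p = 0.016, adjusted p = 0.17, edgeR) and 0.15 under eutherian CRX (adjusted p = 0.87).

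Of the forkhead genes, *Foxp1*, a broadly expressed repressor (chr6:98925342-99523024, minus strand), had a small difference and tight replicates. It had 106, 105 and 107 CPM in control, 85.5, 87.6 and 94.9 CPM under eutherian CRX, and 81.6, 86.7 and 86.1 CPM under metatherian CRX. No *CRX* library reached the control range. Fitted log2 fold changes were -0.32 under metatherian CRX (SE 0.08, adjusted p = 0.12, edgeR) and -0.25 under eutherian CRX (SE 0.08, adjusted p = 0.43). *Foxf2*, a factor of gut and palate mesenchyme (chr13:31625816-31631406, plus strand), had 2.33, 2.55 and 4.85 CPM in control, 3.73, 3.03 and 14.5 CPM under eutherian CRX, and 3.12, 4.31 and 6.43 CPM under metatherian CRX. Its positive log2 fold change under eutherian CRX, 0.89 (SE 0.32, unadjusted p = 0.028, adjusted p = 0.50, edgeR), was 0.45 without eutherian CRX library 3. The log2 fold changes of *Foxc1* and *Foxc2*, factors of eye, vessel and axial mesenchyme, lay between -0.31 and 0.14 against control with adjusted p of at least 0.63. *Foxf1*, given above as just outside the FPKM limit, had a log2 fold change of -0.66 under metatherian CRX in the fit of all 41 genes (SE 0.24, unadjusted p = 0.029, adjusted p = 0.20, edgeR).

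In the main fit edgeR called none of the 3 skeletal regulators under metatherian or eutherian CRX, against 0.0297% and 0.604% of all genes. At an unadjusted p under 0.05 *Runx1* alone passed, under eutherian CRX, against 8.56% of all genes there and 19.5% under metatherian CRX. Limma voom called *Runx1* under both plasmids and *Sox9* under metatherian CRX, against 46.2% of all genes under metatherian and 16.8% under eutherian CRX. DESeq2 called none of the 3, against 9.94% and 3.3%. Without the libraries numbered 3, edgeR called *Sox9* under metatherian CRX and *Runx1* under eutherian CRX, against 22.3% and 3.43% of all genes. *Runx2*, the master regulator of osteoblasts, had 39.6, 41.3 and 42.8 CPM in control, 36.2, 34.4 and 50.5 CPM under eutherian CRX, and 37.9, 43.2 and 49.5 CPM under metatherian CRX, with log2 fold changes of 0.07 and -0.05 (SE 0.12) under metatherian and eutherian CRX. *Sox9* had log2 fold changes of 0.28 and -0.04 (SE 0.32). *Runx1*, a Runt factor of blood and of skeletal progenitors (chr16:92601466-92826074, minus strand), had 29.3, 34.0 and 48.2 CPM in control, 19.2, 23.2 and 44.1 CPM under eutherian CRX, and 24.6, 26.8 and 38.8 CPM under metatherian CRX. Its libraries overlapped between conditions, and its log2 fold change was -0.43 under eutherian CRX (SE 0.13, unadjusted p = 0.016, adjusted p = 0.41, edgeR) and -0.30 under metatherian CRX (adjusted p = 0.28).

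*Gli2*, the main activator of Hedgehog target genes (chr1:118834061-119053619, minus strand), had 10.6, 14.2 and 25.4 CPM in control, 7.68, 7.95 and 12.2 CPM under eutherian CRX, and 5.19, 5.98 and 10.8 CPM under metatherian CRX. Each *CRX* library lay below the control library of its number, and library 3 was the highest of each condition, so that control library 1 overlapped with both library 3 values. The log2 fold change was -1.18 under metatherian CRX (SE 0.15, unadjusted p = 0.00012, adjusted p = 0.072, edgeR) and -0.79 under eutherian CRX (SE 0.15, adjusted p = 0.11). *Gli3*, which acts mainly as a repressor, had log2 fold changes of -0.37 and -0.28 (SE 0.19). *Gli1* had at most 59 counts in a library, and in the fit of all 41 genes its log2 fold changes were 0.98 (SE 0.82) under metatherian CRX and 0.46 (SE 0.80) under eutherian CRX. For *Gli1*, 66 exonic bases overlap *Arhgap9* on the other strand. *Hic1*, a zinc-finger repressor that marks mesenchymal progenitors, ranged from 9.12 to 44.8 CPM and its log2 fold changes of -0.70 and -0.49 came with SEs of 0.51 and 0.50.

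Other genes of the Hedgehog pathway were read beside *Gli2*. Of 14 such genes 9 were tested and 0 were called against control by edgeR. Under metatherian CRX DESeq2 and limma voom each called 5, all lower, against 9.94% and 46.2% of all genes, and under eutherian CRX they called 0 and 2, against 3.3% and 16.8%. Under metatherian CRX all 9 had negative fold changes (median log2 fold change -0.77), except that *Sufu*, at 0.00 in the main fit, was at 0.01 with DESeq2 size factors, and 5 had an unadjusted p under 0.05, against 19.5% of all genes, namely the coreceptors *Gas1*, *Cdon* and *Boc*, the ciliary kinesin *Kif7* and the glypican *Gpc3*. *Kif7* had 15.4, 17.5 and 13.3 CPM in control, 14.7, 15.6 and 11.7 CPM under eutherian CRX, and 8.73, 10.8 and 7.66 CPM under metatherian CRX, with a log2 fold change of -0.77 (SE 0.12, adjusted p = 0.072, edgeR). *Gas1*, at the bottom of the list, had a log2 fold change of -1.33 (SE 0.35, adjusted p = 0.12). Under eutherian CRX the median was -0.14, and 1 gene, the receptor and target *Ptch1*, had an unadjusted p under 0.05, against 8.56% of all genes, with a log2 fold change of 0.36 (adjusted p = 0.39).

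**Figure D4:**
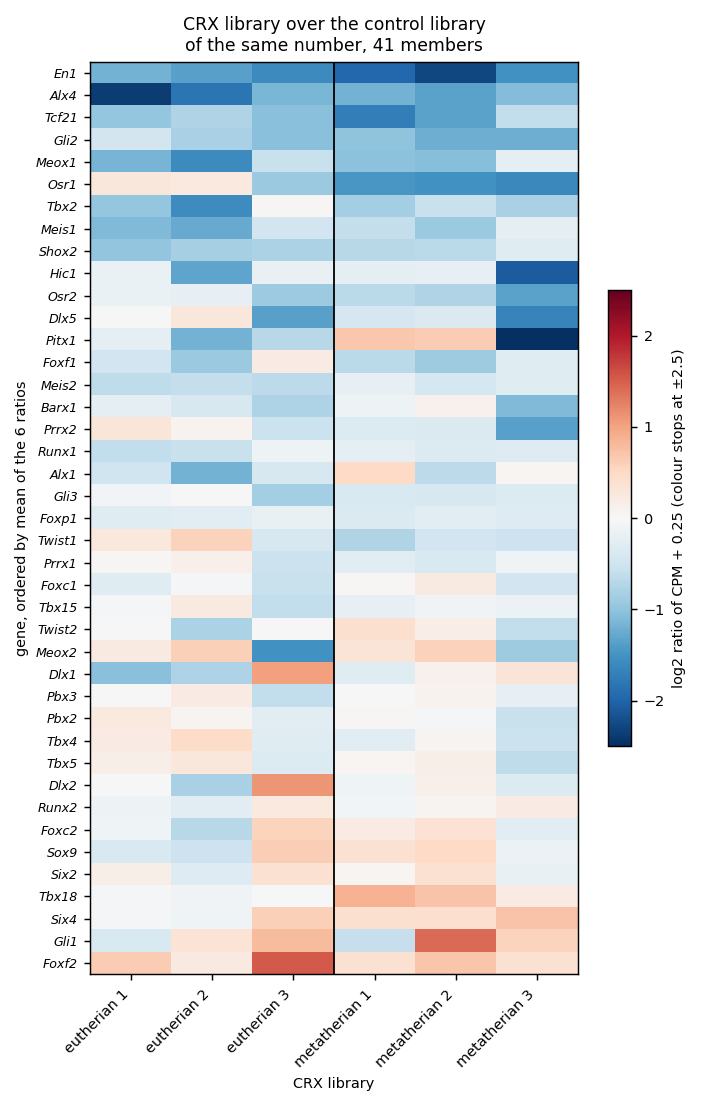
Log2 ratio of each *CRX* library to the control library of the same number for the 41 genes (rows, ordered by their mean) in the 6 *CRX* libraries (columns), with 0.25 CPM added before the ratio. *En1*, *Alx4* and *Gli2* are below control in all 6 columns, *Osr1* is below control in all 3 metatherian CRX columns and in eutherian CRX library 3 alone among the eutherian columns, and *Foxf2* is above control in all 6.

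The direct comparison asked where the orthologues differed from each other. By edgeR 0 of the 32 genes were called, against 0% of all genes, and 10 reached an unadjusted p under 0.05 (7 lower and 3 higher with metatherian CRX), against 11.5% of all genes (4.13% lower and 7.41% higher). With all 41 genes fitted 0 were called and 11 reached an unadjusted p under 0.05 (7 lower and 4 higher), against 0% and 11.7% of 14599 genes (4.26% lower and 7.41% higher). DESeq2 called 3 (*Osr1*, *Tbx18* and *Twist1*) and limma voom 22, against 3.14% and 48.3% of all genes. The smallest p-value belonged to *Osr1*, with a mean of 23.5 CPM ± 10.0 (SD, n = 3) under metatherian CRX and 72.5 CPM ± 46.3 (SD, n = 3) under eutherian CRX. Its log2 difference, metatherian minus eutherian CRX, was -1.44 (SE 0.25, unadjusted p = 0.00082, adjusted p = 0.25, edgeR). That of *Osr2* was -0.50 (SE 0.19, adjusted p = 0.40), that of *Twist1* was -0.76 (SE 0.21, adjusted p = 0.31) and that of *Prrx2* was -0.63 (SE 0.21, adjusted p = 0.35).

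In the other direction, *Tbx18* had 56.1 CPM ± 9.85 (SD, n = 3) under metatherian CRX and 35.9 CPM ± 3.44 (SD, n = 3) under eutherian CRX, a log2 difference of 0.64 (SE 0.16, unadjusted p = 0.0050, adjusted p = 0.28, edgeR). *Meis2* and *Shox2* each had a log2 difference of 0.32, with adjusted p of 0.33 and 0.39, and that of *Shox2* was 0.21 without metatherian CRX library 3. The remaining 3 genes with an unadjusted p under 0.05 were *En1* (log2 difference -0.57), *Gli2* (-0.39) and *Tbx4* (-0.37), with adjusted p of at least 0.41. The difference of *En1* was -0.37 without metatherian CRX library 2 and -0.87 without metatherian CRX library 3, and that of *Gli2* was -0.26 without eutherian CRX library 1. The libraries of both orthologues did not overlap for 2 genes, *Tbx18* higher and *Pbx2* lower with metatherian CRX, against 11.5% of all genes (6.23% higher and 5.3% lower). Without eutherian CRX library 3, *Osr1* and *Twist1* were called, against 3.46% of all genes, and without metatherian CRX library 3, *Tbx18* was called, against 1.46%.

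Within each condition these genes separated library 3 from libraries 1 and 2. In control, 16 of the 32 tested genes differed by more than 0.5 on the log2 scale between library 3 and the mean of libraries 1 and 2 (13 higher and 3 lower), against 18.1% of all genes tested. Under eutherian CRX 26 did so (15 higher and 11 lower), against 33.4% of all genes, and under metatherian CRX 20 did so (10 higher and 10 lower), against 23% of all genes. The median size of this log2 difference over the 32 genes was 0.47, 1.02 and 0.65 in control, eutherian and metatherian CRX, beside 0.23, 0.32 and 0.26 over all genes. This difference was not tested.

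For some genes of the group this difference had the same direction in all 3 conditions. Library 3 was higher by more than 0.5 on the log2 scale in each condition for several genes. Among them were *Alx4* (1.27 in control, 2.23 under eutherian CRX and 1.45 under metatherian CRX), *Meis1* (1.28, 2.00 and 1.81), *Gli2* (1.03, 0.62 and 0.92) and *En1* (0.96, 0.65 and 1.56). Library 3 was lower by more than 0.5 in all 3 for *Osr1* (-1.16, -2.36 and -1.28), *Prrx2* (-0.55, -1.28 and -1.55) and *Twist1* (-0.65, -1.46 and -0.54). *Pbx2*, *Foxp1* and *Runx2* were steady, with a ratio of highest to lowest CPM under 1.5 over the 9 libraries. The shares of all genes shifted in all 3 conditions, or steady in this way, were not counted. Without all libraries numbered 3, with 2 libraries left in each condition, 15 of the group were called under metatherian CRX, 6 under eutherian CRX and 15 between the orthologues, against 22.3%, 3.43% and 22.6% of all genes.

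**Figure D5:**
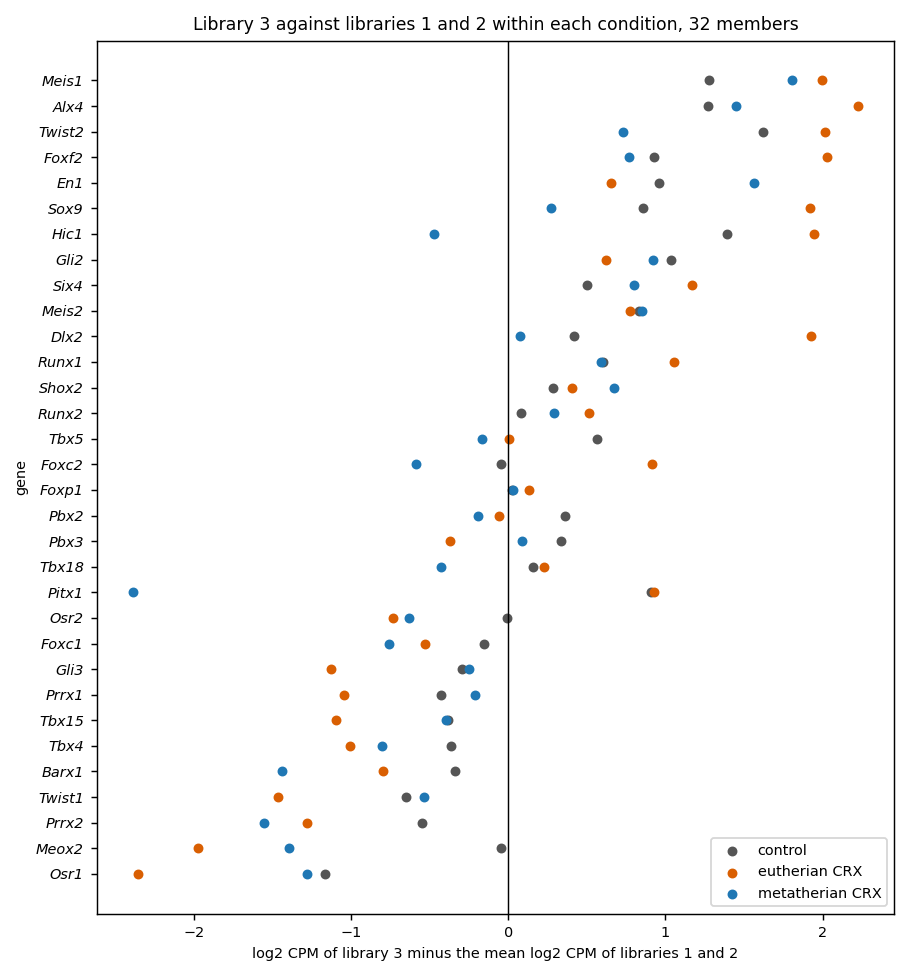
Log2 CPM of library 3 minus the mean log2 CPM of libraries 1 and 2 for the tested genes, 1 point per condition. *Alx4*, *Meis1*, *Gli2* and *En1* lie right of 0 in all 3 conditions, *Osr1*, *Prrx2* and *Twist1* lie left of it in all 3, and *Foxp1* lies near 0.

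Paralogues of these factors outside the group, and genes that such factors are known to control, were counted in the same fit. Of 42 paralogues, 41 were in the table, 14 were tested and 0 were called against control by edgeR, with 4 lower at an unadjusted p under 0.05 under metatherian CRX (*Six5*, *Meis3*, *Glis1* and *Glis3*), against 19.5% of all genes, and 1 lower under eutherian CRX (*Pknox2*), against 8.56%. DESeq2 called 1 and limma voom 10 of them under metatherian CRX, against 9.94% and 46.2% of all genes, and 0 and 2 under eutherian CRX, against 3.3% and 16.8%. Under metatherian CRX the ends of the list were *Foxp2* (log2 fold change -1.07, SE 0.54) and *Foxs1* (0.51, SE 0.64). *Glis3*, a Gli-similar zinc-finger gene, had a log2 fold change of -0.89 under metatherian CRX (SE 0.15, adjusted p = 0.072, edgeR). Of 15 skeletal and tendon genes 9 were tested and 0 were called by edgeR, while 3 reached an unadjusted p under 0.05 under metatherian CRX (2 up, 1 down) and 1 in each direction under eutherian CRX, against 19.5% and 8.56% of all genes. DESeq2 called 3 and limma voom 9 of them under metatherian CRX, against 9.94% and 46.2% of all genes, and 1 and 3 under eutherian CRX, against 3.3% and 16.8%. At the top of that list was *Spp1*, which encodes the bone matrix protein osteopontin, with 1024, 1581 and 9419 CPM in control, 1801, 1621 and 21477 CPM under eutherian CRX, and 13529, 17781 and 25101 CPM under metatherian CRX. Its log2 fold change under metatherian CRX was 3.10 (SE 0.61, adjusted p = 0.087, edgeR), and library 3 was the highest of each condition. At its bottom was *Tnmd*, a tendon glycoprotein, with a log2 fold change of -2.10 under metatherian CRX (SE 0.61, adjusted p = 0.15) and -2.08 under eutherian CRX (SE 0.62, adjusted p = 0.37).

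Summed levels of the markers of other cell types differed between conditions and library numbers. The summed level of 11 macrophage markers was 24.7 to 52.5 CPM in control, 11.3 to 29.4 CPM under eutherian CRX and 9.06 to 17.7 CPM under metatherian CRX. *Lyz2* was the largest part of the sum in control library 1 and ranged from 0.518 to 23.8 CPM over the 9 libraries. Of the 11 markers, 4 were tested and all 4 had negative fold changes against control with both plasmids. Of these 4, 3 had an unadjusted p under 0.05 under metatherian CRX and 1 under eutherian CRX, against 19.5% and 8.56% of all genes. DESeq2 called 1 and limma voom 4 under metatherian CRX, against 9.94% and 46.2% of all genes, and each called 1 under eutherian CRX, against 3.3% and 16.8%. By edgeR 0 were called under metatherian CRX and 1 under eutherian CRX, against 0.0297% and 0.604% of all genes. This was the lectin *Siglecg* (log2 fold change -2.07, SE 0.31, adjusted p = 0.049, edgeR). *Siglecg* rose over control libraries 1 to 3 (3.10, 5.65 and 8.91 CPM), where *Lyz2* (23.8, 8.72 and 4.26 CPM) and *Tyrobp* (3.05, 1.38 and 0.449 CPM) fell. The defining marker *Ptprc* was at 0.107 to 1.65 CPM in every library. Among markers not tested, *Cd14* had means of 1.80, 2.17 and 1.75 CPM in control, eutherian and metatherian CRX, and *Mrc1* 0.987, 1.21 and 0.963 CPM. Means of *Ptprc*, *Csf1r*, *Fcer1g*, *C1qa* and *C1qb* were below control with both plasmids. Of the 12 fibroblast markers 0 were called by edgeR, while 9 reached an unadjusted p under 0.05 under metatherian CRX (8 lower, 1 higher) and 3 under eutherian CRX, all lower, against 19.5% and 8.56% of all genes. DESeq2 called 6 and limma voom 11 of them under metatherian CRX, against 9.94% and 46.2% of all genes, and 3 and 6 under eutherian CRX, against 3.3% and 16.8%. Summed levels of 7 endothelial markers were 13.8 to 17.3, 14.7 to 19.6 and 11.7 to 19.5 CPM in control, eutherian and metatherian CRX. Those of 7 epithelial markers were 0.912 to 3.75, 0.567 to 13.2 and 1.96 to 9.37 CPM, those of 7 skeletal muscle markers were 8.65 to 12.4, 5.43 to 20.4 and 8.14 to 12.0 CPM with *Myf5* at 0 in all libraries, and those of 7 neural markers were 39.4 to 96.3, 26.6 to 141 and 86.4 to 130 CPM. Most of the neural sum came from *Nes*, at 13.4 to 106 CPM, and *Tubb3*, at 10.0 to 39.2 CPM. The highest epithelial sum of each condition was in library 3, and so was the highest neural sum. Most of that epithelial sum was *Krt18*, at 3.04, 12.0 and 8.32 CPM in library 3 of control, eutherian and metatherian CRX. *Epcam* was also highest in library 3 of each condition (0.203, 0.415 and 0.492 CPM), whereas *Cdh1* was lowest there (0.261, 0.161 and 0.215 CPM). The part of these markers in the results above was not tested.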

How the data were processed

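RNA-seq was measured in 9 MEF libraries, 3 for each of control, eutherian CRX and metatherian CRX, sequenced on a single chip. The authors aligned the reads to mm10 and deposited raw read counts per gene from featureCounts, with exon intervals. The strand setting was not given in the sources used here. From these counts, FPKM were computed with the merged exon length, and CPM with TMM factors. Genes were kept by filterByExpr (14599) and by a mean above 2 FPKM in at least 1 condition (10100). edgeR 4.0.16 (R 4.3.3) fitted a quasi-likelihood model to all 9 libraries with condition and library number, since the study states that samples were prepared in pairs, although not which libraries form them. A gene was called at a Benjamini-Hochberg adjusted p under 0.05. DESeq2 1.42.0, limma 3.58.1 (voom with quality weights), 2 other scalings, other filters, no block and omitted libraries were the alternatives. Simulated counts for metatherian CRX against control over 10100 genes had 100 genes changed by 2 and 100 by 1 on the log2 scale. Of these, edgeR recovered 98 and 67, with 12 false calls. The simulated counts held no difference between library numbers, unlike these data, so they do not give the power of the fits reported here.

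Libraries of a condition were not duplicates: the closest pair, eutherian CRX 1 and 2, had a chi-square of 30.8 times its degrees of freedom. Floors cover counting error only. The genes, the pathway and paralogue lists and the marker lists were chosen with earlier results of these data known. Fold changes with tests, and values in each library, were given for every gene of the group with an unadjusted p under 0.05 in a comparison of the main fit; values in each library were also given for the most abundant genes and for those beside the FPKM limit. Genes of other lists were to be named where called or at an end of their list. Other values and names were added after the values were seen. These were untested group genes, remaining fold changes, Hedgehog and paralogue genes, *Sufu*, *Nes*, *Tubb3*, *Myf5*, *Ptprc* and other markers named without a call.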

Additional observations from a re-analysis of the deposited data

How the results depend on the processing

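The fold changes of genes with an unadjusted p under 0.05 kept their direction under every alternative run; of these 576 gene results, 470 kept their side of the threshold, 96 passed it only in the alternative and 10 lost it. Of the other tested genes of the group, whose direction was compared under the 2 other scalings only, *Twist2* under metatherian CRX changed sign (-0.004 with upper-quartile scaling). The number of genes of the group called under metatherian CRX, 0 in the main fit, was 9 with DESeq2, 19 with limma voom, 4 with only the 6 libraries compared, 15 without the libraries numbered 3, 5 at an adjusted p under 0.1 and 13 at an unadjusted p under 0.05, against 9.94%, 46.2%, 3.94%, 22.3%, 2.71% and 19.5% of all genes in the same order, and 0 to 8 with a single library omitted, against 0% to 8.79%. Under eutherian CRX, 1 in the main fit, it was 2 with filterByExpr alone, 3 with no filter beyond 1 count, 6 with DESeq2, 11 with limma voom, 0 with only the 6 libraries compared, 6 without the libraries numbered 3, 4 at an adjusted p under 0.1 and 9 at an unadjusted p under 0.05, against 0.623%, 0.595%, 3.3%, 16.8%, 0%, 3.43%, 1.15% and 8.56% of all genes, and 0 to 3 with a single library omitted, against 0% to 1.13%. Between the orthologues, 0 in the main fit, it was 3, 22, 15 and 10 with DESeq2, limma voom, no libraries numbered 3 and an unadjusted p under 0.05, against 3.14%, 48.3%, 22.6% and 11.5% of all genes, and 0 to 2 with a single library omitted, against 0% to 3.46%. The cause was not tested. The simulated counts held no difference between library numbers. Of 100 genes changed by 1 on the log2 scale in them, edgeR, DESeq2 and limma voom recovered 67, 85 and 68. They made 12, 49 and 13 false calls.

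Without the replicate block, 0 genes of the group were called in each of the 3 comparisons. Deviations of libraries with the same number correlated at over 0.1 in 8 of 9 pairs, and at -0.0032 between eutherian and metatherian CRX 2, so the numbers were not shown to pair the libraries; control 1, for example, correlated at 0.69 with eutherian CRX 1 and at 0.72 with eutherian CRX 2. Depth limited *Tcf21* and *Gli1*, with 0 to 59 counts a library.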
